A study of Mus musculus with 12 samples.

Results

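Tent5a, Tent5b and Tent5c are mouse genes of the TENT5 family (formerly Fam46), and were selected by symbol as 3 of the 55450 genes in a table of RNA sequencing counts from brain and liver. The family was taken up with results of these libraries already known: Tent5c is 1 of the 6 genes, of 13681 tested in both tissues (0.0439%), that had an unadjusted p under 0.05 for genotype in each tissue. The values behind the choice are not stated in the sources used here. The differences of Tent5c between genotypes are taken to be among them and are given as a description, while those of Tent5a between genotypes and of both genes between brain and liver are tested, on the assumption that they were not. Tent5d, the remaining gene of the family, was measured with them.

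The libraries were made from total RNA depleted of ribosomal RNA, extracted from the brains and livers of males, 7 to 9 weeks old. The mice were either wild type (Vaultrc5+/+, titled flx) or Vaultrc5-/-, a deletion of the gene for a vault RNA, a small noncoding RNA of the vault particle. The 4 groups were wild-type brain, Vaultrc5-/- brain, wild-type liver and Vaultrc5-/- liver, with 3 libraries in each, numbered 1 to 3. The labels give no strain, treatment or Cre line for any group, and do not say which animal a library came from. A p-value here thus measures the spread between these libraries.

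Total counts were 14844971 to 18567381 in the brain libraries and 23247449 to 27155480 in the liver libraries, so a gene with 3 counts had 0.124 to 0.167 CPM (counts scaled to library size). Vaultrc5 had 4, 1 and 4 counts in wild-type brain and 33, 39 and 48 in wild-type liver, and 0 in all 6 knockout libraries. In liver this was at least 12.8-fold lower in the knockout, set against a floor of 3 counts per library. The neuronal gene Snap25 ranged from 1396 to 1669 CPM in brain and from 0 to 0.155 CPM in liver. Albumin (Alb) ranged from 39470 to 71188 CPM in liver and from 0 to 0.224 CPM in brain. Both tissue labels were matched by these markers. Brain libraries differed in content from one another: the summed level of 5 choroid plexus markers ran from 3.36 to 55.5 CPM, and that of 5 oligodendrocyte markers from 1509 to 5184 CPM.

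A poly(A) tail at the 3′ end of a messenger RNA recruits poly(A)-binding proteins, which favour translation and protect the RNA from decay. Most tails are added in the nucleus by the canonical poly(A) polymerase, while non-canonical polymerases, among them the TENT5 proteins, can lengthen tails in the cytoplasm. TENT5C is best known for extending the tails of messenger RNAs that encode secreted proteins, such as immunoglobulins in plasma cells. TENT5A is known for the same activity on collagen messages in bone-forming cells.

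The annotated starts of these genes lie in sequence of unlike composition. Coordinates are of GRCm38, the mm10 assembly. Tent5c (ENSMUSG00000044468.14) spans bases 100451628 to 100489324 of chromosome 3 on the minus strand, with 3 annotated transcripts, 1 of them coding. Tent5a (ENSMUSG00000032265.14) spans 85320439 to 85327348 of chromosome 9 on the minus strand, with 2 coding transcripts. Tent5b (ENSMUSG00000046694.6) spans 133480132 to 133487938 of chromosome 4 on the plus strand, with 1 coding transcript. Tent5d (ENSMUSG00000073007.10) spans 107792590 to 107872909 of chromosome X, also on the plus strand. No exon of these genes overlaps an exon of another gene.

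The following runs are the bases of each RefSeq promoter window that lie upstream of every annotated start, 5′ to 3′ on the gene's strand. They are shown because the 2 genes measured well in these libraries, Tent5c and Tent5a, and the one that was nearly unread, Tent5b, can then be compared by eye. Capitals mark GGGCGG (a GC box) and CCAAT on either strand; a GC box of the other strand reads CCGCCC. The searched motifs do not overlap in these runs.
Tent5c, chr3:100489325-100489442, minus strand: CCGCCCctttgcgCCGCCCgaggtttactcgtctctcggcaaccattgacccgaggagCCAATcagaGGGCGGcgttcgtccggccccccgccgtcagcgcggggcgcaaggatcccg
Tent5a, chr9:85327349-85327400, minus strand: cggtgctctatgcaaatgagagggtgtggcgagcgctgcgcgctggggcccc
Tent5b, chr4:133479883-133480131, plus strand: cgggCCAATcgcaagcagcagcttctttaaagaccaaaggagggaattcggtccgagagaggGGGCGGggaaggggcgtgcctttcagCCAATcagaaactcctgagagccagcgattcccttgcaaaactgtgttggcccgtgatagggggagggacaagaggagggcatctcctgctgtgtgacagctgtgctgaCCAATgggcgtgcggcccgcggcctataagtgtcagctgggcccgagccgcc

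The Tent5c run holds 3 GC boxes and 1 CCAAT in 118 bases, and the Tent5b run holds 1 GC box and 3 CCAAT in 249 bases. The 52 bases of Tent5a hold neither. Over the whole window, from 250 bases before to 50 bases after the RefSeq start, Tent5c had 42 CG dinucleotides and 7 GC boxes. The windows of the 2 Tent5a starts had 46 and 42 CG dinucleotides, 1 TATAAA and 2 GC boxes each. Tent5b had 16 CG dinucleotides, and the windows of the 2 Tent5d starts had 1 and 23. The median over 32851 RefSeq windows was 7 CG dinucleotides, and 97% of windows had fewer than Tent5c, 67% fewer than Tent5b. On either strand, 35.7% of all windows held GGGCGG, 37.4% held CCAAT, 13.6% held TATAAA and 7.15% held CACGTG. The last of these, the E-box read by clock and other bHLH factors, was in none of the Tent5a, Tent5b and Tent5c windows and in 1 Tent5d window. These matches describe the letters of the windows and are not binding data.

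Tent5a and Tent5c were both read in every library, and far more in liver than in brain, whereas Tent5b and Tent5d were at or near 0 throughout. In wild-type brain Tent5c had 85, 70 and 71 counts, or 3.80, 2.90 and 3.06 CPM in libraries 1, 2 and 3. In knockout brain it had 98, 101 and 107 counts, or 4.89, 4.50 and 4.97 CPM. All knockout brain libraries stood above all wild-type ones.

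In wild-type liver Tent5c had 366, 406 and 450 counts, or 20.4, 20.0 and 23.3 CPM. In knockout liver it had 583, 592 and 542 counts, or 30.1, 32.7 and 30.1 CPM. The liver groups did not overlap either, and the lowest liver library was above the highest brain library.

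Tent5a had 85, 112 and 151 counts in wild-type brain, or 3.80, 4.64 and 6.52 CPM. In knockout brain it had 66, 113 and 137 counts, or 3.29, 5.04 and 6.36 CPM. The genotypes overlapped fully, and in each the library numbered 1 was the lowest and that numbered 3 the highest.

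In wild-type liver Tent5a had 392, 645 and 840 counts, or 21.9, 31.8 and 43.4 CPM. In knockout liver it had 489, 538 and 856 counts, or 25.3, 29.7 and 47.5 CPM. The genotypes overlapped here too, with the same libraries lowest and highest.

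Tent5b had 1, 0 and 0 counts in wild-type brain, 0, 1 and 0 in knockout brain, 0, 3 and 1 in wild-type liver and 2, 2 and 0 in knockout liver. Tent5d had 1 count in a single knockout liver library and 0 in the others. No Tent5b or Tent5d value exceeded 3 counts, the limit that a count of 0 allows, so neither passed the filter on low counts and no fold is given. At this depth their expression was not detectable in whole brain or liver.

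**Figure D1:**
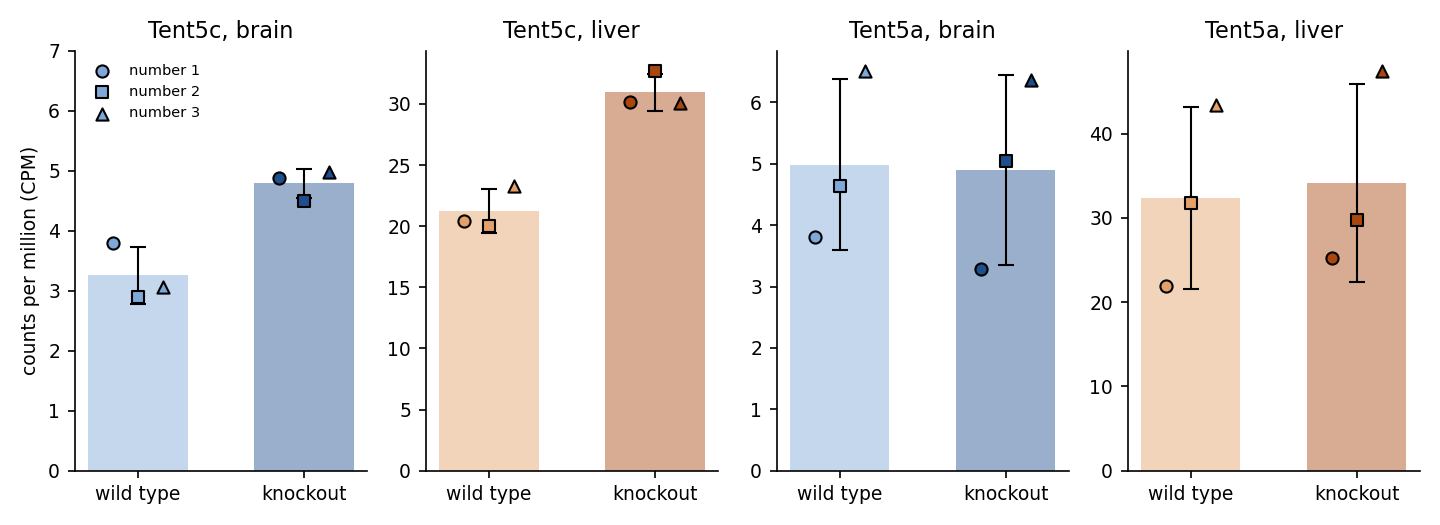
CPM of Tent5c and Tent5a in each brain and liver library, with separate axes starting at 0; bars are the means of 3 libraries, whiskers 1 SD, and the marker shape gives the library number. Tent5c knockout libraries (4.50 to 4.97 CPM in brain, 30.1 to 32.7 in liver) sit above all wild-type libraries of their tissue, while the Tent5a genotypes overlap and the triangle, library number 3, is the highest point in each of its groups.

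The 4 groups were set apart for Tent5c, while for Tent5a only the tissues were. Tent5c was highest in knockout liver, at 31.0 ± 1.51 CPM (SD, n = 3), followed by wild-type liver at 21.2 ± 1.78, knockout brain at 4.79 ± 0.249 and wild-type brain at 3.26 ± 0.479. No neighbours in that order overlapped. Tent5a averaged 34.2 ± 11.7 CPM in knockout liver and 32.4 ± 10.8 in wild-type liver, against 4.99 ± 1.39 in wild-type brain and 4.90 ± 1.54 in knockout brain. For Tent5a the order within a tissue lay inside the spread, and only the tissues were apart. The coefficient of variation of Tent5a was 27.9% to 34.4% in the 4 groups and that of Tent5c was 4.89% to 14.7%.

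Levels of different genes can be compared per exon length, as RPKM (reads scaled to exon length and to library size). In wild-type liver Tent5a averaged 5.67 RPKM and Tent5c 3.48, ranks 6 and 9 among 14 poly(A) polymerases and terminal nucleotidyltransferases. In knockout liver Tent5a averaged 5.99 and Tent5c 5.08 RPKM, ranks 6 and 7. In brain both were near the bottom of that order, at ranks 10 and 11 in each genotype: Tent5a averaged 0.874 RPKM in wild type and 0.859 in the knockout, and Tent5c 0.534 and 0.785.

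The leading gene of the 14 in each group was Papola, the canonical nuclear poly(A) polymerase, with 12.6 RPKM in wild-type brain and 20.0 in wild-type liver. Tent4b, which adds mixed tails, was second with 8.36 and 15.5 RPKM. Tut7, a terminal uridylyltransferase, had 4.75 RPKM in wild-type brain and 14.9 in wild-type liver. Papolb, a testis-type cytoplasmic polymerase, was read in brain at 0.354 RPKM in wild type and had 0 counts in all liver libraries.

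**Figure D2:**
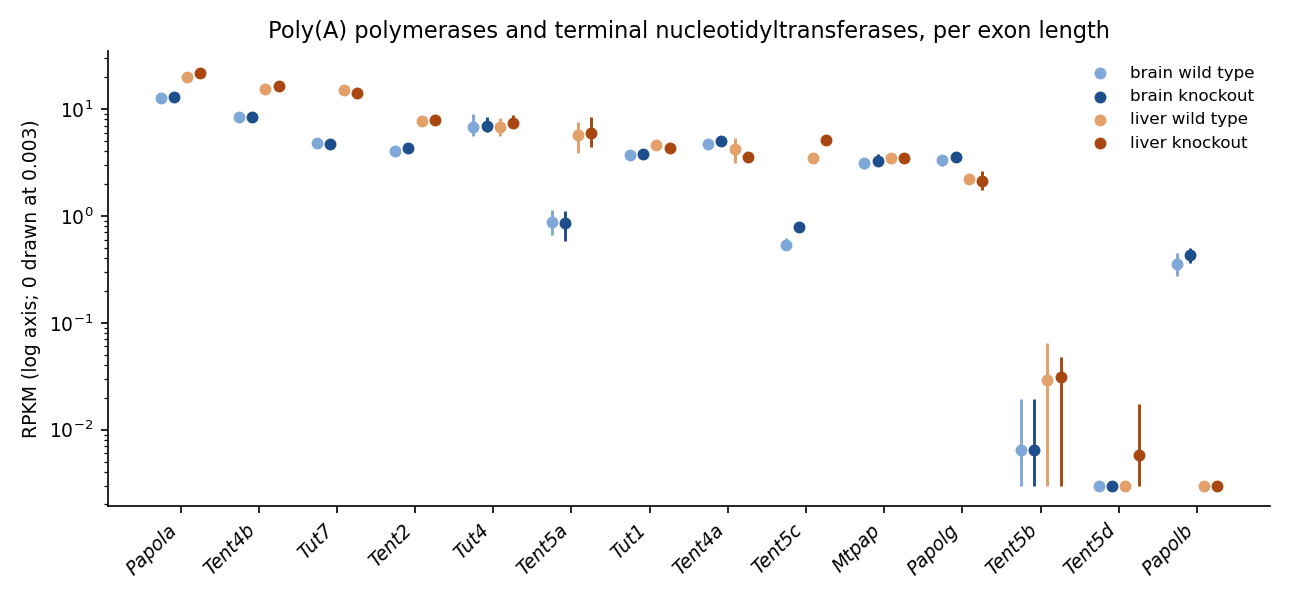
Mean RPKM (log axis, zeros drawn at 0.003) of the 14 poly(A) polymerases and terminal nucleotidyltransferases in the 4 groups, ordered by wild-type liver; vertical lines span the 3 libraries of a group. The means of Tent5a and Tent5c lie below 1 RPKM in brain (single Tent5a libraries reach 1.14) but among the other enzymes in liver (3.48 to 5.99 RPKM), and Tent5b and Tent5d lie near 0 in every group.

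Within a library, the ratio of Tent5a to Tent5c per length ran from 0.720 to 2.27. In wild-type brain it was 1.07, 1.71 and 2.27 in libraries 1, 2 and 3, and in knockout brain 0.720, 1.20 and 1.37. In wild-type liver it was 1.15, 1.70 and 2.00, and in knockout liver 0.897, 0.972 and 1.69. The ranges of this ratio in the 2 tissues thus overlapped, while the level of each gene differed several-fold between them. A difference in the ratio between tissues was not tested.

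Both genes were called higher in liver than in brain in each genotype. In the wild type Tent5a was 6.49-fold higher in liver by mean CPM, a log2 difference (brain minus liver) of -2.72 ± 0.30 (SE), with an edgeR adjusted p of 8.37e-05. In the knockout it was 6.97-fold higher, at -2.85 ± 0.32, with an edgeR adjusted p of 0.000104. Tent5c was 6.52-fold higher in wild-type liver, at -2.73 ± 0.16, with an edgeR adjusted p of 2.23e-06. In knockout liver it was 6.47-fold higher, at -2.75 ± 0.12, with an edgeR adjusted p of 6.51e-07. All 6 liver libraries exceeded all 6 brain libraries for each gene.

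A tissue difference was the rule for the genes measured here: 78.6% of 18850 genes were called between wild-type brain and wild-type liver, 34.7% in favour of liver and 43.9% in favour of brain. Between the knockout tissues 78.7% of 18785 were called, 35.2% in favour of liver and 43.5% in favour of brain. The scale also matters, because the scaling factors were 1.29 to 1.36 in brain and 0.722 to 0.779 in liver. With library totals alone the log2 differences shrank to -1.89 (wild type) and -1.99 (knockout) for Tent5a and to -1.89 and -1.87 for Tent5c, all still called. The median log2 difference of all genes then moved from 0.21 to 1.05 between wild-type tissues and to 1.08 between knockout tissues. Relative to that median the 2 genes differed by about the same amount under either scale. In whole tissue, fewer cells of a type and less RNA per cell cannot be told apart.

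The other genes that make, bind or remove poly(A) tails differed between tissues in both directions. Among 7 other non-canonical nucleotidyltransferases, 4 were higher in wild-type liver, 0 in wild-type brain, with a median log2 difference of -0.33 against 0.21 for all genes. In the knockout 3 were higher in liver and 1 in brain. Tut7 had the largest difference in favour of liver, -1.67 ± 0.12 in the wild type, with an edgeR adjusted p of 6.36e-06. Tent4a, a relative of Tent4b, was the one higher in knockout brain, by 0.45 ± 0.11, with an edgeR adjusted p of 0.00733.

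Of the 3 canonical poly(A) polymerases, Papola was higher in liver, at -0.70 ± 0.11, and Papolb and Papolg were higher in brain in the wild type. Papolb was at least 9.58-fold higher in wild-type brain and at least 11.3-fold higher in knockout brain, set against 3 counts per liver library. Papolg differed by 0.56 ± 0.12. The median of the 3 was 0.56, the value of Papolg.

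Among 24 deadenylases and their regulators, which shorten tails, 11 were higher in liver in each genotype, while 6 were higher in wild-type brain and 5 in knockout brain. Their median log2 difference was -0.30 in each genotype. Tob1, an adaptor that brings the CCR4-NOT deadenylase to messages, had a difference of -2.76 ± 0.15 in the wild type, close in size to that of Tent5a and Tent5c. Btg2, an adaptor of the same family, was higher in brain by 1.22 ± 0.35. Cnot1, the scaffold of CCR4-NOT and the most abundant of the list in both tissues by CPM, differed by -0.90 ± 0.10.

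Of 12 poly(A)-binding proteins and their partners 11 were tested, and 6 were higher in liver and 2 in brain in each genotype. Pabpc1, the main cytoplasmic poly(A)-binding protein, was higher in liver, at -2.11 ± 0.10 in the knockout. Larp1, which binds messages of the translation machinery, differed by -1.38 ± 0.10. Pabpc5 had 36 to 65 counts in brain libraries and at most 1 in a liver library.

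Of 17 genes of the cleavage and polyadenylation machinery, 6 were higher in brain and 5 in liver in the wild type, with a median of 0.09, close to that of all genes. Cstf2, an RNA-binding subunit, was higher in brain by 1.88 ± 0.09, and Clp1, a kinase of the complex, was higher in liver, at -1.44 ± 0.19. Of the 4 cytoplasmic polyadenylation element binding proteins, Cpeb1 was higher in brain by 3.16 ± 0.26 and Cpeb2 higher in liver, at -0.46 ± 0.16. Cpeb4 was the most abundant of these by CPM in both tissues and was not called in the wild type, at 0.11 ± 0.17.

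The partners reported for TENT5 proteins mostly stood higher in liver, as the 2 polymerases did. Fndc3a and Fndc3b, membrane proteins of the endoplasmic reticulum that bind TENT5 proteins, had log2 differences of -1.46 ± 0.11 and -1.70 ± 0.19 in the wild type, and Bccip had -1.51 ± 0.11. Plk4, the centriole kinase, was higher in brain by 1.18 ± 0.30. The median of these 4 genes was -1.49 in the wild type and -1.42 in the knockout.

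Among 4 secreted matrix transcripts reported as TENT5A substrates in bone, 3 were higher in liver in each genotype. Serpinf1 (a secreted serpin) had 549 to 592 CPM in wild-type liver and 4.77 to 6.39 in wild-type brain, a difference of -6.73 ± 0.17. Col1a1 (a collagen chain) differed by -0.91 ± 0.23. Sparc (a matrix glycoprotein) was not called, at 0.80 ± 0.36 in the wild type.

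**Figure D3:**
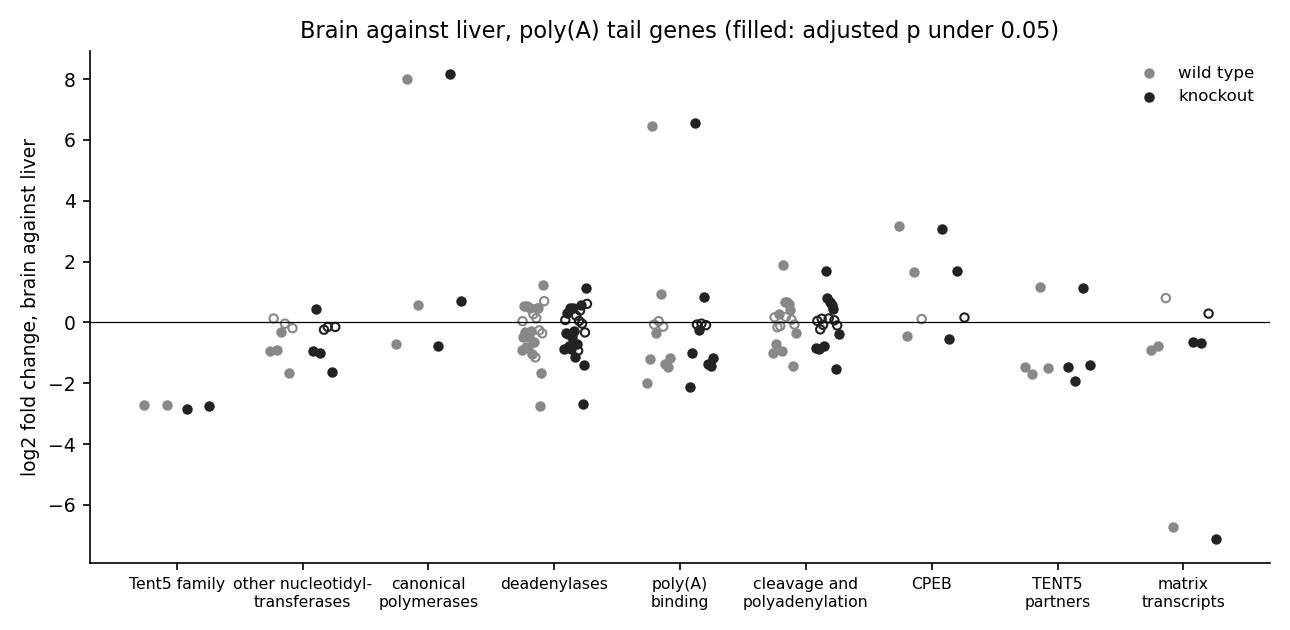
Log2 fold change of brain against liver for each tested gene of 9 lists, in the wild type (grey) and the knockout (black); filled points had an edgeR adjusted p under 0.05. Tent5a and Tent5c lie together between -2.72 and -2.85, below most genes of the other lists, and the points at the top and bottom are Papolb, Pabpc5 and Serpinf1; Papolb and Pabpc5 have 0 or 1 count in liver libraries, so their fitted size depends on the method and is no bound.

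Between genotypes, Tent5c was 1.47-fold higher in knockout brain and 1.46-fold higher in knockout liver by mean CPM. The log2 fold change was 0.54 ± 0.17 (SE) in brain and 0.56 ± 0.10 in liver, and the difference between these effects was 0.00 ± 0.14. Tent5c ranked 18 by p among the genes tested in brain and 6 among those in liver. It was not called in either tissue (edgeR adjusted p of 1 in brain and 0.992 in liver), and these values are treated as ones by which the family was picked.

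At an adjusted p under 0.05 edgeR called 0 of 18075 genes in brain (0%) and 0 of 15329 in liver (0%). At an unadjusted p under 0.05 the number was 122 in brain (0.675%) and 536 in liver (3.5%), of which 65 in brain (0.36% of genes) and 277 in liver (1.81%) were higher in the knockout. DESeq2 called 0 in brain and 10 in liver, and gave Tent5c an adjusted p of 0.0683 in liver, while edgeR with the replicate number as a block called 2 in liver and gave Tent5c an adjusted p of 0.388. Over the other settings tried the adjusted p of Tent5c in liver ran from 0.0683 to 0.994.

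Non-overlap of the genotypes was also seen for other genes. Of the genes tested in brain, 374 (2.07%) had every knockout library above every wild-type library, and of those tested in liver 583 (3.8%) did. In both tissues at once the number was 14 of 13681 (0.102%), Tent5c among them. Besides Tent5c, the genes that reached an unadjusted p under 0.05 for each tissue were Nop9, Pecam1, Nnt, Ppp1r3f and Gm9780, which are named because the count is small. Of these, Pecam1 and Gm9780 had positive log2 fold changes in both tissues, Nnt and Ppp1r3f negative ones in both, and Nop9 opposite ones. None was called.

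The Tent5a libraries of the 2 genotypes overlapped in both tissues. Its log2 fold change was -0.04 ± 0.31 in brain, with an edgeR adjusted p of 1, and 0.10 ± 0.34 in liver, with an edgeR adjusted p of 0.997. With the replicate number as a block the estimates were -0.05 ± 0.15 in brain and 0.09 ± 0.09 in liver, and neither was called. The difference between its brain and liver effects was -0.11 ± 0.47, with an edgeR adjusted p of 1. No gene of 20141 was called for that difference (0%) by edgeR, 489 had an unadjusted p under 0.05 (2.43%), and DESeq2 called 1.

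No gene of the other poly(A) lists was called between genotypes in either tissue. In brain the median log2 fold changes of the lists lay between -0.05 and 0.09, apart from the 4 matrix transcripts at -0.37. In liver they lay between -0.02 and 0.03, apart from the matrix transcripts at -0.21. The median over all genes was -0.01 in brain and 0.01 in liver. Serpinf1 was at -0.48 ± 0.18 in brain and at -0.06 ± 0.11 in liver. Col1a1 was at -0.14 ± 0.23 in brain and -0.40 ± 0.16 in liver. Neither was called (edgeR adjusted p of 1 in brain and 0.992 in liver for each).

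**Figure D4:**
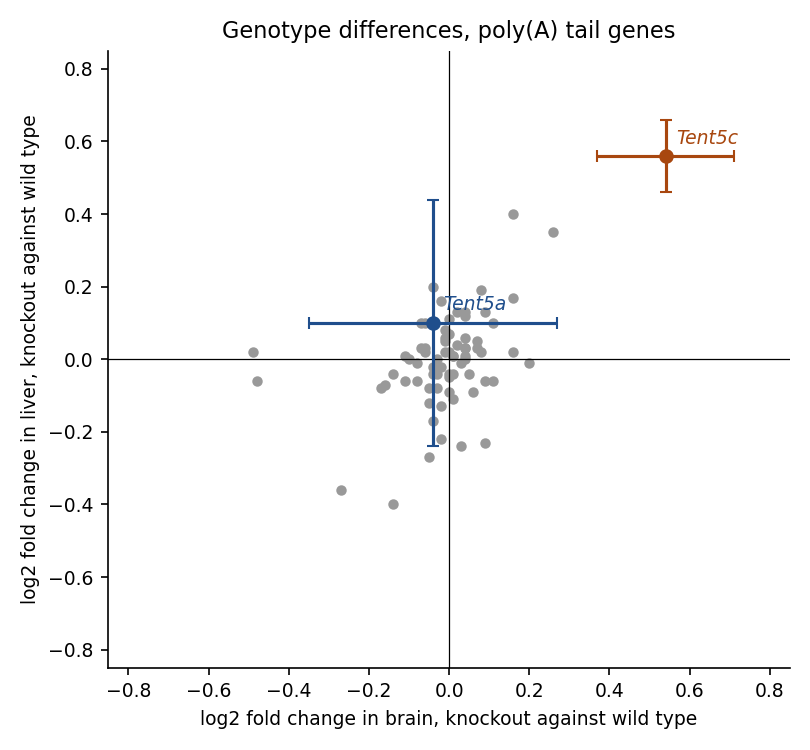
Log2 fold change of knockout against wild type in brain (x axis) and liver (y axis) for the poly(A) tail genes tested in both tissues; whiskers on Tent5a and Tent5c are 1 SE. Tent5c lies at 0.54 and 0.56, apart from the other points, and Tent5a near 0 with wide whiskers; no point was called.

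The protein-coding genes nearest to Tent5c were not called between genotypes. Man1a2, a mannosidase of the Golgi that begins 72884 bases past Tent5c, was at 0.02 ± 0.15 in brain and 0.06 ± 0.07 in liver on the log2 scale. Gdap2, 244647 bases away on the other side, was at -0.07 ± 0.09 and -0.06 ± 0.14, and Wdr3 beyond it at -0.07 ± 0.12 and -0.14 ± 0.13. Vtcn1 passed the filter only in liver, at 0.80 ± 0.71. Their adjusted p in edgeR was 1 in brain and 0.992 or 0.993 in liver. These genes were chosen by position.

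Beside Tent5c, the marker lists of B and plasma cells, red cells, macrophages, cholangiocytes and endothelial cells had positive median log2 fold changes in liver, while those of hepatocytes (-0.12, 2 of 6 above 0) and of stellate cells and fibroblasts (-0.10, 2 of 6 above 0) were negative. No marker in these lists was called. The median was 0.30 for cholangiocytes, with 5 of 5 above 0, and 0.16 for endothelial cells, with 6 of 6 above 0. With 1 library left out the cholangiocyte median ran from 0.02 to 0.54 and that of stellate cells and fibroblasts from -0.22 to 0.03. All 6 tested B and plasma cell markers had a log2 fold change above 0, with a median of 0.55, and the summed level of the 7 markers was 13.5, 7.93 and 9.15 CPM in wild-type liver libraries 1, 2 and 3 and 12.9, 14.9 and 13.6 in knockout liver. Jchain, the joining chain of secreted antibodies, had 7 to 16 counts in wild-type liver and 8 to 13 in knockout liver. All 6 tested red cell markers were above 0, with a median of 0.96. The sum of the 7 red cell markers was 151, 118 and 106.5 CPM in wild-type libraries 1, 2 and 3. In knockout libraries it was 163, 162 and 135, higher within each same-numbered pair although the group ranges overlapped. Alas2 made up most of that sum, with means of 102 CPM in wild-type and 110 in knockout liver. Hbb-bs averaged 12.3 and 23.9 CPM, and its genotypes did not overlap, nor did those of Hba-a2, while those of Hba-a1 did. Such non-overlap, higher in the knockout, was seen for 3.8% of genes tested in liver. All 11 macrophage markers were above 0, with a median of 0.52, but that value rested largely on knockout library 2, without which it was 0.11. Their sum was 278, 378 and 314 CPM in wild-type liver and 390, 679 and 297 in knockout liver. Without knockout library 2, Tent5c was at 0.51 on the log2 scale. No list had a defining marker at 0 throughout liver, and the part of these cells in the level of Tent5c was not tested.

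In brain the only B and plasma cell marker that passed the filter was Ighm, at 0.24 on the log2 scale; with 1 library left out the median of the list ran from -0.26 (without knockout library 2) to 0.87 (without knockout library 1). The sum of the 7 markers was 5.72, 13.55 and 14.7 CPM in wild-type brain libraries 1, 2 and 3 and 8.28, 21.4 and 14.9 in knockout brain. Below the filter, Igkc had 1, 2 and 4 counts in the wild type against 4, 4 and 58 in the knockout, and Cd79a had 2, 7 and 1 against 7, 8 and 9; on the CPM scale the genotypes of both did not overlap. The 8 tested macrophage and microglia markers had a median of 0.15, which ran from -0.04 (without knockout library 2) to 0.28 with 1 library left out. The 4 tested red cell markers had a median of 0.14, which ran from -0.17 (without knockout library 1) to 0.43. The 5 oligodendrocyte markers had a median of -0.57, which rested on wild-type library 3, with the highest sum at 5184 CPM: without it the median was 0.05. The 4 astrocyte markers had a median of -0.27, with 1 of 4 above 0, which ran from -0.43 to -0.04 with 1 library left out. The 5 choroid plexus markers had a median of -0.25, with 1 of 5 above 0, which ran from -2.02 to 0.52. The 6 endothelial markers had a median of 0.02, with 3 of 6 above 0, and among them Pecam1 was at 0.46 ± 0.12. The 5 tested stellate cell and fibroblast markers had a median of 0.15, with 4 of 5 above 0. Only 2 cholangiocyte markers were tested in brain, with a median of -0.61 and 0 above 0. No marker of these lists was called, and their part in the level of Tent5c was not tested.

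Tent5a varied with the library number in all 4 groups. As a percentage of its group mean, library 1 stood at 76.2, 67.2, 67.6 and 74.0% in wild-type brain, knockout brain, wild-type liver and knockout liver. Library 3 stood at 131, 130, 134 and 139%. Tent5c in the same libraries stood between 89.1 and 117% of its group means, with no such pattern. Of 20141 genes, 31 (0.154%) had library 1 lowest, 2 in the middle and 3 highest in all 4 groups, as Tent5a did. The labels do not say what a number stands for, and this pattern was picked out after the values were seen.

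Other genes with that pattern in all 4 groups, among the lists examined, were Per1 and Per2, which are clock genes, and Fkbp5, a glucocorticoid-induced co-chaperone. Per1 had 14.7, 35.3 and 85.2 CPM in wild-type liver libraries 1, 2 and 3 and 12.8, 18.01 and 93.6 in knockout liver. In brain it had 59.3, 84.3 and 91.6 CPM with the wild-type allele and 52.6, 102 and 158 without it. Library 3 was thus the highest for Per1 in every group, by a wider margin in liver than for Tent5a.

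In liver the pattern was also that of Noct, a rhythmic member of the deadenylase-like family. Noct had 17.9, 68.2 and 128 CPM in wild-type liver and 8.42, 30.8 and 141 in knockout liver. Of 24 deadenylases and their regulators, 2 had the pattern in both liver groups, Noct and Angel2. Tent4a, Fndc3a and Sparc, from other poly(A) lists, had it in both liver groups too. Of 12 glucocorticoid-responsive genes, 7 had the pattern in both liver groups, against 3.74% of all genes tested in liver, and 2 had it in both brain groups, against 2.88% in brain. Of 16 clock genes, 3 had it in both liver groups and 3 in both brain groups. Arntl, Npas2 and Clock were instead lowest in library 3 of both liver groups. Arntl, for example, had 206, 247 and 63 counts in wild-type liver and 370, 274 and 68 in knockout liver. Per1 belongs to both lists and is counted in each. The part of time of day, of stress or of handling in the level of Tent5a was not tested.

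**Figure D5:**
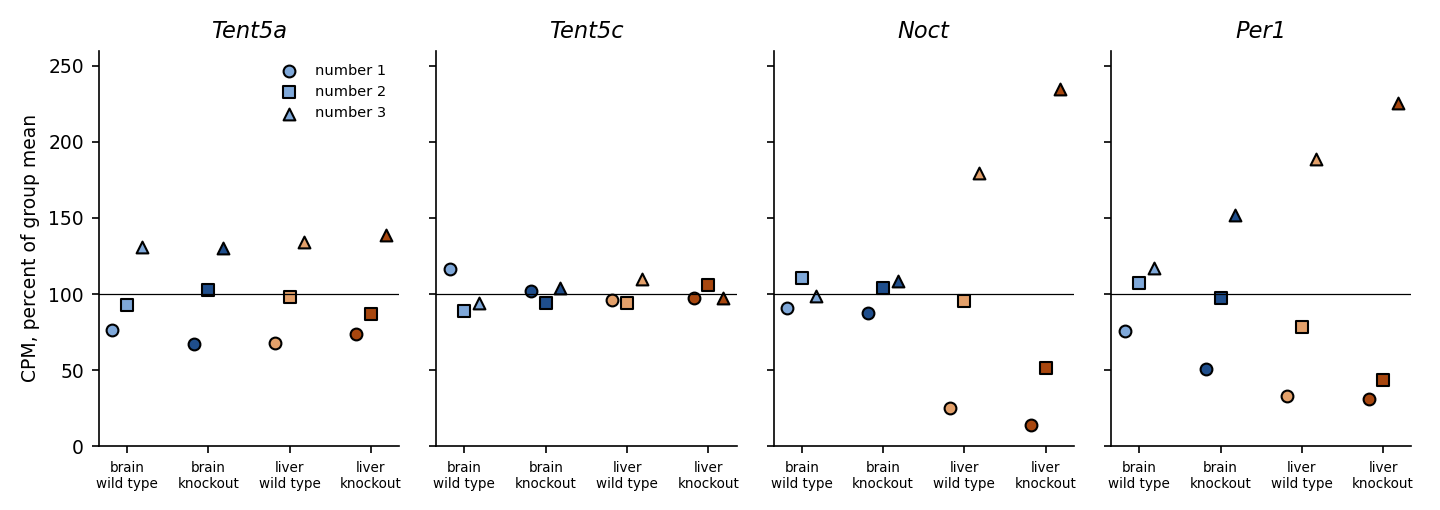
CPM as a percentage of the group mean for Tent5a, Tent5c, Noct and Per1 in each library, by group, with the marker shape giving the library number. For Tent5a library 1 is at 67.2 to 76.2% and library 3 at 130 to 139% in all 4 groups; Tent5c stays between 89.1 and 117%, and Noct and Per1 spread more widely in liver.

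Genes with the profile nearest to each member were found by the root mean square difference of centred log2(CPM + 0.5) over the 12 libraries, among 20140 other genes. For Tent5a these were Fes (a tyrosine kinase, 0.206), Por (cytochrome P450 reductase, 0.245) and Art4 (0.263). For Tent5c they were Ifi209 (0.216), Dnm3os (0.217) and Copz2 (0.229). In brain Art4 (0 to 0.186 CPM), Ifi209 (0.0829 to 0.186) and Dnm3os (0 to 0.199) were near the level of 3 counts. There the 0.5 added to each CPM sets most of the value, so the step between tissues is held down for these genes. Over 12 libraries this measure is led by the step between tissues. Por, for example, had 32.3 to 39.5 CPM in brain and 152 to 408 CPM in liver. Tent5b, which did not pass the filter, had 0 to 3 counts, so its profile is nearly flat on this scale. Its nearest genes, Wdr4 (0.0739), Cisd2 and Ccpg1, could thus only be flat ones, and no likeness in expression is shown.

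Within a tissue, after each profile was divided by its SD, the nearest genes were others again. Over the 6 liver libraries they were Cep85l (0.0708), Marf1 and Gm16310 for Tent5a, and Capzb (0.177) and Gm37606 (0.186) were among those for Tent5c. Cep85l had 66.4, 85.8 and 105 CPM in wild-type liver and 70.7, 79.4 and 110 in knockout liver, with library 3 highest as for Tent5a. Capzb, an actin-capping subunit, had 71.3 to 78.1 CPM in wild-type liver and 83.0 to 88.2 in knockout liver. A gene picked for its likeness to Tent5c shares the genotype step of Tent5c by selection, so these ranges are no separate result.

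Over the 6 brain libraries the nearest genes were Urm1 (0.103), Ssc5d and Gpr137 for Tent5a and Pycrl (0.086), Gm27177 and Gm42443 for Tent5c. Urm1 had 14.8, 15.7 and 18.7 CPM in wild-type brain and 13.8, 16.2 and 18.4 in knockout brain. Pycrl had 3.71 to 4.07 CPM in wild-type brain and 4.33 to 4.46 in knockout brain, which likewise follows from its selection. With 6 libraries and 15328 to 18074 genes compared, near matches of this kind are a description of these libraries.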

How the data were processed

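Total RNA of brain and liver was sequenced from stranded, ribosomal-RNA-depleted, single-end libraries, per the labels' protocols. The authors deposited 1 table of genes by libraries that hold expected counts per gene, not normalized, judged from the values, since 5.06 to 5.71% of them are not whole. The submitters' processing notes name cutadapt, STAR and mm10; the counter and its strand setting are not given in the sources used here. Tent5 values are whole in all libraries. Counts were rounded and tested with edgeR 4.0.16 (R 4.3.3; TMM scaling, filterByExpr with a minimum count of 10 and total of 15, quasi-likelihood F-test, Benjamini-Hochberg threshold 0.05), each contrast on the groups it compares and over the whole table. DESeq2 1.42.0 was an alternative. Simulated data checked the fit: of 200 changed genes, 55% in brain and 82% in liver were recovered at a log2 change of 1, and 97% and 99% at 2, with 22 and 17 false calls. For the difference between tissue effects recovery was 28% at 1 and 88% at 2, with 9 false calls. CPM uses TMM over 12 libraries; RPKM uses GENCODE M21 exon lengths. Promoters are from RefSeq GRCm38.p6.

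The members, the 23 gene lists and the tests were chosen with earlier results of these data known. The text names the family and Vaultrc5. For the poly(A) lists it names mainly the most abundant genes in each tissue and the called genes most in favour of brain and of liver. The most abundant cleavage genes, Cpsf6 in brain and Rbbp6 in liver, were left out of that account. Genes shown for the library-number pattern, Noct among them, and some single markers are named outside this rule. Marker lists are otherwise given by counts, medians and sums. Replicates were distinct (chi-square per degree of freedom 27.2 to 228 over 12 pairs). Same-numbered liver libraries of the 2 genotypes deviated together (r of 0.31, 0.31 and 0.37), so the numbers pair them; the pairing comes from the data and not from the labels. In brain r was 0.65, 0.63 and -0.01, and between tissues it was at most 0.05. One gene among the nearest profiles is not reported here.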

Additional observations from a re-analysis of the deposited data

How the results depend on the processing

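Tent5a and Tent5c were called higher in liver in both genotypes under each other setting tried and with each library left out; the log2 differences without 1 library ran from -3.0 to -2.47 (Tent5a) and -2.87 to -2.67 (Tent5c) in the wild type and from -3.09 to -2.56 and -2.79 to -2.72 in the knockout. Genes called between tissues numbered 13364 to 16401 over the settings in the wild type and 13385 to 16257 in the knockout (14218 to 15053 and 14326 to 14773 with 1 library left out). With library totals 74.4% of the calls in the wild type favoured brain, against 55.8% otherwise, and 75.1% against 55.3% in the knockout.

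Between genotypes Tent5c stayed positive and was not called under any setting: 0.47 to 0.66 in brain and 0.51 to 0.63 in liver without 1 library. Tent5a ranged from -0.27 to 0.21 in brain and from -0.23 to 0.37 in liver without 1 library, and its sign turned without wild-type brain library 3 (0.21), knockout brain library 1 (0.18), wild-type liver library 1 (-0.12) or knockout liver library 3 (-0.23). Its difference between tissue effects ran from -0.38 to 0.20, and that of Tent5c from -0.0744 to 0.0807; with DESeq2 size factors, the DESeq2 test and a filter at 1 CPM the latter was -0.0151, -0.0143 and -0.0007. Genes called between genotypes in liver numbered 10 with DESeq2, 4 without the filter and 0 to 1 without 1 library; for the difference between tissue effects DESeq2 called 1 and the fits without 1 library 0. The cause was not tested. In brain no setting called a gene.

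With the replicate block, 2 genes were called in liver and 2 for the difference between tissue effects, and no call of Tent5a or Tent5c changed. In brain, same-numbered libraries of the 2 genotypes deviated together for numbers 1 and 2 (r of 0.65 and 0.63) but not for number 3 (-0.01). There 4 of 6 libraries correlated best with their own number, and the block left the count at 0. About 70 to 107 counts of Tent5c per brain library limit what its brain values can show.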
